A study of Mus musculus with 12 samples.

Results

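The transcription factors that set the helper lineage of CD4 T cells, or that have been tied to memory and effector fate, were followed in 4 sorted divisions of mouse effector T cells. The set holds 10 genes, of 19057 genes with a symbol on the array, and every probe annotated to Tbx21, Gata3, Bcl6, Foxp3, Rora, Maf, Runx3, Id2, Id3 or Ahr was taken. These genes had 16 probes. A probe counted as detected when its detection p, which compares it with the negative controls of the same array, was under 0.05 on at least 3 of the 12 arrays. By this measure 11 of the 16 probes were detected, for 7 of the 10 genes, among 17829 detected probes in all. The rule itself did not use the measured differences between divisions, but the members and lists were chosen with earlier results of these data known.

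Naive DO11.10 CD4 T cells, which carry a transgenic T cell receptor for an ovalbumin (OVA) peptide, had been labelled with CFSE before transfer, and each cell division dilutes this dye. The recipients were BALB/c mice, which then received the peptide in CFA (complete Freund's adjuvant) as immunization. Lymph nodes were taken 66 to 72 hours later, and effectors were sorted by dye content into D3, D4, D6 and D8, described in the labels as divided 2, 3, 5 and 7 times. All 4 groups shared the transfer, the immunization and the harvest time, and the design names D4 as the division that readily becomes memory and D3, D6 and D8 as divisions with less of that capacity. Each division had 3 arrays, 1 from each of 3 independent experiments, and arrays of 1 experiment carry the same number. The labels name no gate on the transferred receptor and do not give the age of the mice, so host T cells that fell in a dye gate cannot be told apart from transferred cells.

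Between 15563 and 16666 probes were detected per array, and the median raw intensity lay between 41.6 and 51.2. The lowest log2 intensity of a detected probe, the floor of what an array could measure, lay between 4.67 and 4.78. Of 11 T cell markers looked for, 9 were detected, and Cd4 differed by 0.09 ± 0.13 on the log2 scale between D8 and D3. The summed linear intensity of the T cell markers lay between 53860 and 55800 in D3, 51760 and 53390 in D4, 47290 and 48320 in D6, and 44510 and 45690 in D8. Of 8 B cell markers on the array, Ms4a1, Pax5, Blnk and Cr2 were not detected. The sum of the 4 detected ones was 148.2 to 218.9 in D8 and 116.7 to 137.4 in D3. Among these 4, only Cd22 passed the threshold set out below in D8 against D3.

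CD4 T cells take on a helper lineage under the control of a few transcription factors. Tbx21 (T-bet) drives Th1 cells, Gata3 Th2 cells, Bcl6 follicular helper (Tfh) cells, Foxp3 regulatory T cells, and Rora promotes Th17 cells. Runx3 works with T-bet in Th1 cells, Maf promotes Il4 and Il21 in Th2 and Tfh cells, and Ahr, a receptor for aryl hydrocarbons, acts in Th17 and related cells. Id2 and Id3 have no DNA-binding part of their own: they bind E proteins, which recognise the E-box, and keep them from DNA, and they have been tied mostly to effector and to memory fates of T cells.

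Id2, Foxp3 and Rora were the members with a probe whose trend over divisions was called (2 of 3 detected probes of Id2, 1 of 3 of Foxp3 and the 1 of Rora). Their promoters are shown for that reason, and because the E-box is the element through which the partners of Id2 act. Each sequence is the 250 bases before the annotated start in the RefSeq promoter table of build GRCm38.p6, read 5′ to 3′ on the strand of the gene, with an E-box (CANNTG) in capitals. Of the 10 members, 8 were matched in that table; Foxp3 has a pair of starts there, and the first is shown.
Id2 (chr12:25096093-25096342, minus strand): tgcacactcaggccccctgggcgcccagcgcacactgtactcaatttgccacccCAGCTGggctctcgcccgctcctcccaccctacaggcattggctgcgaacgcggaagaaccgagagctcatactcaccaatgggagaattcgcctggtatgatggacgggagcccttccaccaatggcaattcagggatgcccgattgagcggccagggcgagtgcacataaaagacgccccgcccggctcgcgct
Foxp3 (chrX:7579426-7579675, plus strand): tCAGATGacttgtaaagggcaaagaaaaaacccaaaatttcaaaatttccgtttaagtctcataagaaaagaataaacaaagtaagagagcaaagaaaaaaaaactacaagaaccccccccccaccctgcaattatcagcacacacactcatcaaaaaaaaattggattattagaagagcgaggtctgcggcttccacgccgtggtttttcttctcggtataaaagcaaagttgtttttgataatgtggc
Rora (chr9:68653536-68653785, plus strand): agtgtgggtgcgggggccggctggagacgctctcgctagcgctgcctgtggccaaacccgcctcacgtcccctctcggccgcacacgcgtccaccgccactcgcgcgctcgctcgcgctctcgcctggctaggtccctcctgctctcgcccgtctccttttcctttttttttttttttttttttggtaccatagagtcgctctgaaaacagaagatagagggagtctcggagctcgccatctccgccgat

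The Id2 window held 1 E-box and the Foxp3 window 1, and the Rora window held 0. Of all 32851 promoters of the same length, 66.2% held at least 1, so these matches are a description of the sequences. The core of the aryl hydrocarbon receptor site, GCGTG on either strand, was found 1 time in the Foxp3 window and 1 time in the Rora window, and 28.2% of promoters held it. The other motifs searched on both strands had 0 matches in the 3 windows. The window of the second Foxp3 start, not shown, held 2 E-boxes, 1 aryl hydrocarbon receptor core, 2 ROR sites and 1 GATA site. These motifs were the site bound by ROR factors (AGGTCA, held by 14% of promoters), the RUNX site (TGTGGT, likewise held by 14% of promoters), the GATA site (AGATAA, held by 9.99% of promoters), the forkhead site (GTAAACA, held by 3.17% of promoters) and the T-box core (AGGTGT, held by 11.8% of promoters).

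Differences are given as log2 intensity of the first-named division minus the second, ± standard error, with p-values of limma adjusted by Benjamini-Hochberg over all 17829 detected probes. A probe was called when its adjusted p was under 0.05. In D8 against D3, 4 of the 11 member probes were called, 1 higher and 3 lower, where 32.2% of all detected probes were called (15.4% higher, 16.8% lower). In D8 against D4, 5 were called, 2 higher and 3 lower, where 24% of all probes were called (11.6% higher, 12.4% lower). In D8 against D6, 1 was called, higher in D8, with 6.77% of all probes called and 3.37% called higher. In the trend over times divided, 1 was called upward and 3 downward, with 35.6% of all probes called (17.2% upward, 18.4% downward). In D6 against D4 and in D4 against D3, 0 member probes were called, with 2.98% and 0% of all probes called. With the experiment as a block, the member calls numbered 4 in D8 against D3 (40% of all probes), 7 in D8 against D4 (31.7%), 3 in D8 against D6 (13.3%), 1 in D6 against D4 (7.41%), 0 in D4 against D3 (0.269%) and 5 in the trend (40.8%). At an unadjusted p under 0.05, without the block, D6 against D4 held 1 member probe and 2797 of all 17829 probes. D4 against D3 held 4 member probes and 1188 of all probes. These 4 were Tbx21 and the 3 detected Foxp3 probes. ILMN_2917180 of Foxp3 passed the detection filter through D3 alone, so it had to be higher there. The comparisons share divisions, so their counts do not stand for separate evidence. The median of the 11 differences was -0.22 for D8 minus D3, against -0.0021 over all probes. It was 0.12 for D8 minus D4, against -0.0098 over all probes. That 0.12 is the value of ILMN_2917180, which was not above background in D8 or D4.

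**Figure D1:**
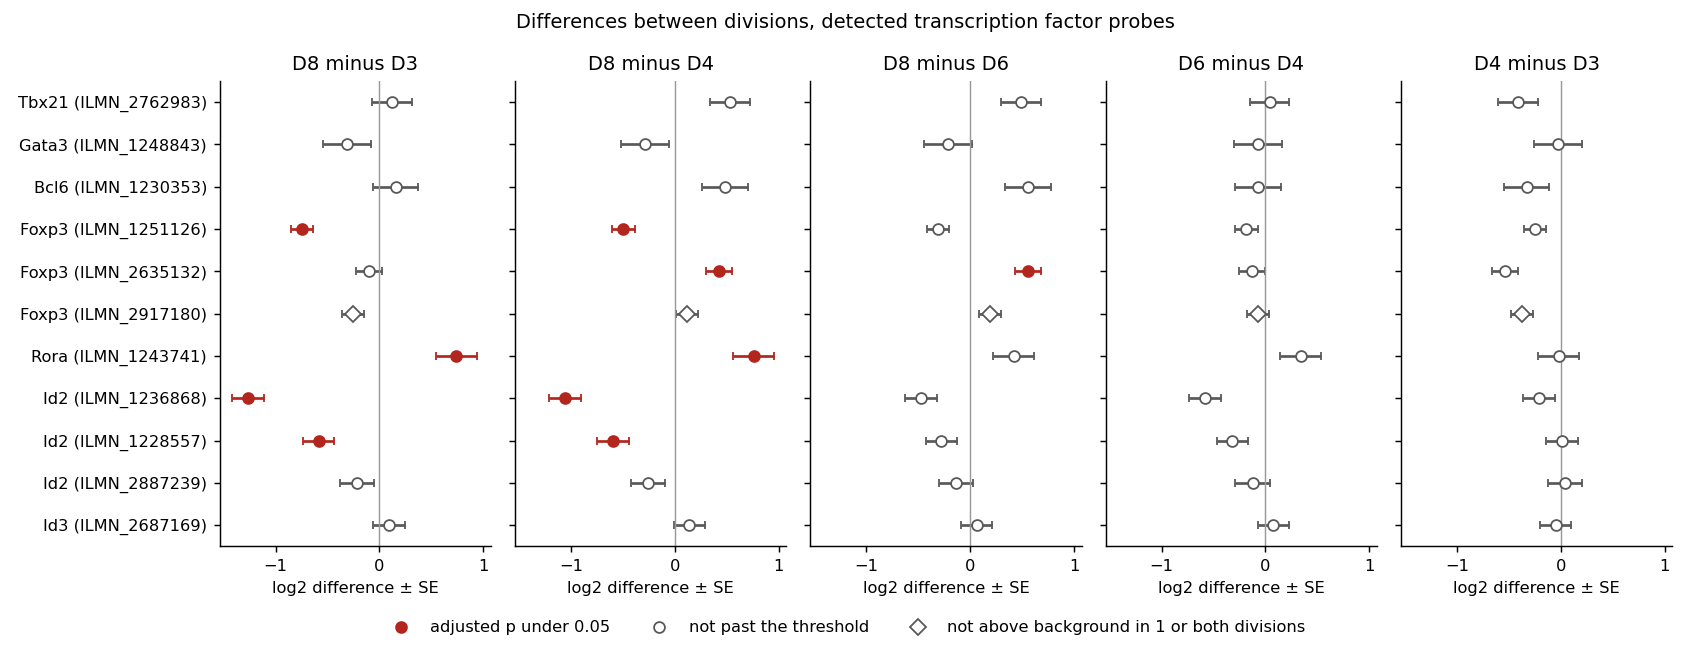
Log2 difference between divisions (horizontal axis, ± standard error of the limma fit) of the 11 detected probes, for 5 pairs of divisions. Filled red points had an adjusted p under 0.05; the Id2 probe ILMN_1236868 stands furthest below 0 in D8 minus D3 and D8 minus D4, and Rora furthest above.

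Id2 showed the largest differences among the members, and it was lower in later divisions. The probe ILMN_1236868 measured 9.64, 9.62 and 9.84 in D3, 9.74, 9.33 and 9.39 in D4, 8.77, 9.02 and 8.93 in D6, and 8.10, 8.66 and 8.54 in D8 (log2 intensity, experiments 1 to 3). The D3 and D4 arrays overlapped, all D6 arrays lay below them, and all D8 arrays lay below D6. The probe fell by 1.26 ± 0.15 in D8 relative to D3, or 2.40-fold (adjusted p = 2.37e-05), and by 1.05 ± 0.15 relative to D4 (adjusted p = 0.000192). Its trend was -0.26 ± 0.03 per division over all 12 arrays (adjusted p = 1.53e-06).

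The step of Id2 from D4 to D6 depended on the fit. ILMN_1236868 differed by -0.58 ± 0.15 in D6 minus D4 with an adjusted p of 0.0594, and of 0.0356 with the experiment as a block. Without experiment 1 of D8, which enters only the estimate of the spread here, the adjusted p was 0.0316. D8 minus D6 was -0.47 ± 0.15 (adjusted p = 0.0875). D4 minus D3 was -0.21 ± 0.15 (adjusted p = 0.847), so the neighbours D4 and D3 did not differ beyond their spread.

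The second Id2 probe, ILMN_1228557, gave the same order of D4, D6 and D8 with smaller differences. It measured 7.87, 7.82 and 8.08 in D3, 7.81, 7.95 and 8.05 in D4, 7.42, 7.66 and 7.78 in D6, and 7.10, 7.25 and 7.67 in D8. D6 and D8 overlapped, and both lay below every D3 and D4 array. It fell by 0.58 ± 0.15 in D8 relative to D3 (adjusted p = 0.00801), and by 0.60 ± 0.15 relative to D4 (adjusted p = 0.00953). Without experiment 1 of D8 the difference from D4 was -0.48 ± 0.16 with an adjusted p of 0.0558, past the threshold no longer. The trend was -0.13 ± 0.03 per division (adjusted p = 0.00148).

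The third Id2 probe, ILMN_2887239, was near the floor of the arrays. It measured 4.90, 4.88 and 4.87 in D3, 4.49, 5.28 and 4.99 in D4, 4.73, 4.95 and 4.70 in D6, and 4.60, 4.55 and 4.84 in D8, and it was detected on 2 of 3 D4 arrays and 1 of 3 D8 arrays. D8 minus D4 was -0.26 ± 0.16 (adjusted p = 0.291). Without experiment 1 of D4, the lowest of the 12 arrays for this probe, it was -0.47 ± 0.14 (adjusted p = 0.0277). Over the 12 arrays its values correlated with those of ILMN_1236868 at r = 0.317, and ILMN_1236868 and ILMN_1228557 correlated at r = 0.847; these points share division and experiment, and the figures are descriptions.

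**Figure D2:**
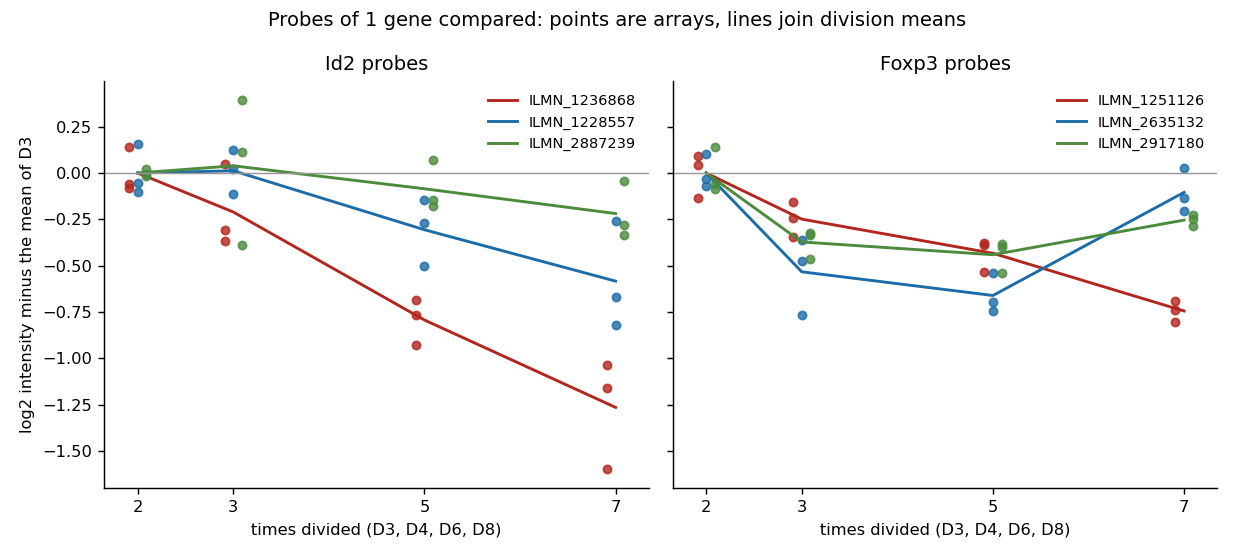
Log2 intensity of each array minus the D3 mean of the same probe (vertical axis) against times divided (horizontal axis), for the 3 detected probes of Id2 and of Foxp3; points are arrays and lines join division means. The Id2 probes have the same order of D4, D6 and D8, whereas the Foxp3 probes part at D8, where ILMN_1251126 is lowest and ILMN_2635132 is close to its D3 level.

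The genes most like Id2 (ILMN_1236868) across the 12 arrays, of 9559 detected genes outside the set, were Sh3bp2 (Pearson r = 0.988), Irf1 (r = 0.969) and Aldh6a1 (r = 0.967). Irf1, an interferon-induced transcription factor used in Th1 cells, fell by 0.77 ± 0.11 in D8 relative to D3. Sh3bp2, an adaptor protein of immune receptor signalling, fell by 0.96 ± 0.13. Aldh6a1, a mitochondrial enzyme of valine breakdown, fell by 1.92 ± 0.16. Id3 did not share this pattern. Its probe measured 6.75, 6.36 and 6.84 in D3, 6.64, 6.61 and 6.56 in D4, 6.76, 6.64 and 6.63 in D6, and 6.76, 6.44 and 7.02 in D8. The divisions overlapped throughout, D8 minus D3 was 0.09 ± 0.15 (adjusted p = 0.696), and the means of the 3 experiments spanned 0.25 against 0.14 for the division means.

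Of the E proteins and other partners or relatives of the Id proteins, 4 of 7 were detected, and 1 was higher and 0 lower in D8 against D3. The median difference was 0.08, and over all 9566 detected genes, each by its brightest probe, 34.7% were called (16.7% higher, 18.1% lower) with a median of 0.00. Lyl1, a basic helix-loop-helix factor of blood progenitors, rose by 0.38 ± 0.14 (adjusted p = 0.0483). Lyl1 was near the floor of the arrays, with a D3 mean of 4.68, and was detected on 1 of 3 D3 arrays and 3 of 3 D8 arrays. Tcf12, the E protein HEB, had a difference of 0.32 ± 0.13 (adjusted p = 0.0777; 0.0352 with the experiment as a block), but 1 other detected probe of Tcf12 was called lower. Id1, Id4 and Zbtb16 were not detected.

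Foxp3 was measured by 3 detected probes, all annotated to the same RefSeq transcript, and they did not give the same order of divisions. The first, ILMN_1251126, measured 9.48, 9.66 and 9.71 in D3, 9.28, 9.46 and 9.38 in D4, 9.09, 9.23 and 9.24 in D6, and 8.88, 8.82 and 8.93 in D8. The 4 divisions did not overlap, each lying below the one before it. This probe fell by 0.74 ± 0.11 in D8 relative to D3, or 1.68-fold (adjusted p = 0.000106), and by 0.50 ± 0.11 relative to D4 (adjusted p = 0.00368; 0.0559 with median centring in place of quantile normalization). Its trend was -0.14 ± 0.02 per division (adjusted p = 3.22e-05). D8 minus D6 was -0.31 ± 0.11, with an adjusted p of 0.104, and of 0.0442 with the experiment as a block. D4 minus D3 was -0.25 ± 0.11 (adjusted p = 0.713). In bulk samples such as these, fewer cells that express a gene and less RNA per cell cannot be told apart.

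The second Foxp3 probe, ILMN_2635132, had its lowest values in the middle divisions. It measured 6.02, 5.85 and 5.88 in D3, 5.56, 5.44 and 5.15 in D4, 5.22, 5.17 and 5.37 in D6, and 5.94, 5.78 and 5.71 in D8. Every D4 and D6 array lay below every D3 and D8 array, while D3 and D8 overlapped. It rose by 0.43 ± 0.13 in D8 relative to D4 (adjusted p = 0.0217) and by 0.56 ± 0.13 relative to D6 (adjusted p = 0.0158), and D8 minus D3 was -0.10 ± 0.13 (adjusted p = 0.574). D4 minus D3 was -0.53 ± 0.13 (limma, adjusted p = 0.323; 0.073 with the block).

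Without the experiment as a block, the calls of ILMN_2635132 rested on single arrays. The limma fit with the block and all arrays gave adjusted p of 0.0105 in D8 against D4 and 0.0058 in D8 against D6. D8 minus D4 was 0.31 ± 0.13 without experiment 3 of D4 (adjusted p = 0.103) and 0.36 ± 0.14 without experiment 1 of D8 (adjusted p = 0.0981). With only the 6 arrays of these divisions the adjusted p was 0.0566, and with median centring it was 0.144. D8 minus D6 was 0.51 ± 0.14 without experiment 2 of D6 (adjusted p = 0.0684) and 0.49 ± 0.14 without experiment 1 of D8 (adjusted p = 0.0936), and median centring gave an adjusted p of 0.0993.

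The third detected probe, ILMN_2917180, was above background only in D3. It measured 5.07, 4.87 and 4.84 in D3, 4.61, 4.47 and 4.60 in D4, 4.39, 4.53 and 4.54 in D6, and 4.70, 4.64 and 4.68 in D8, and it was detected on 0 of 3 arrays in each division after D3. This probe passed the detection filter through the D3 arrays alone, so D3 had to be its high division, and no difference is read from it. It was called in none of the 6 comparisons. The remaining probe, ILMN_1225330, was detected on 2 of 12 arrays, both of D3, and its detection p ranged from 0.0224 to 0.536.

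The difference between ILMN_1251126 and ILMN_2635132 was smallest in D8. ILMN_2635132 was the dimmer probe, at 5.15 to 6.02 over the 12 arrays, a range in which differences are compressed. Within an array it was 3.47 to 3.83 in D3, 3.72 to 4.23 in D4, 3.87 to 4.06 in D6, and 2.94 to 3.22 in D8 (log2). The D8 arrays lay below those of all other divisions. Over the 12 arrays these probes correlated at r = 0.072, as a description. The probe sequences are not used here, and the part of the transcript that each probe reads was not examined. The genes most like ILMN_1251126 were Dcaf6 (r = 0.982), Bnip5 (r = 0.974) and Dcun1d4 (r = 0.971), all lower in D8 than in D3.

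Most called genes of the regulatory T cell list were lower in D8. Of 13 on the array, 12 were detected, and 2 were higher and 7 lower in D8 against D3, with a median of -0.51. Over all detected genes, 16.7% were called higher and 18.1% lower. Gpr83, a receptor of regulatory T cells, fell by 2.11 ± 0.39 (adjusted p = 0.000727). Tnfrsf18 (GITR) fell by 1.18 ± 0.15 (adjusted p = 2.42e-05), Izumo1r (folate receptor 4) by 0.94 ± 0.18 and Capg, an actin-capping protein, by 0.65 ± 0.23 (adjusted p = 0.0409). The 2 that rose encode secreted products. Il10, which no D3 array detected, was at least 2.16-fold higher in D8. It passed the filter through D6 and D8 alone, so the filter set its direction. Ebi3, a subunit of interleukins 27 and 35, rose by 0.62 ± 0.16. Against D4, 1 gene of the list was higher and 7 lower in D8, with 26.7% of all genes called (13% higher, 13.7% lower).

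Rora rose with division number. Its detected probe, ILMN_1243741, measured 6.67, 6.47 and 6.45 in D3, 6.55, 6.24 and 6.73 in D4, 6.87, 6.56 and 7.11 in D6, and 7.64, 6.81 and 7.34 in D8. The D3 and D4 arrays overlapped with each other and with D6, and all 3 D8 arrays lay above all D3 and D4 arrays. It rose by 0.74 ± 0.20 in D8 relative to D3, or 1.67-fold (adjusted p = 0.01), and by 0.76 ± 0.20 relative to D4 (adjusted p = 0.0114). Its trend was 0.16 ± 0.04 per division (adjusted p = 0.00241). D8 minus D6 was 0.42 ± 0.20 (adjusted p = 0.243) and D6 minus D4 was 0.34 ± 0.20 (adjusted p = 0.447), and neither was called with the experiment as a block (adjusted p = 0.0653 and 0.173). Within experiments, D8 lay above D6 in 3 of 3 and D6 above D4 in 3 of 3.

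Without the experiment as a block, the calls of Rora in D8 against D3 and D8 against D4 rested on single arrays. The trend of Rora was called without each array in turn (highest adjusted p = 0.0155). Without experiment 1 of D8, its highest array, D8 minus D3 was 0.55 ± 0.20 (adjusted p = 0.0581) and D8 minus D4 was 0.57 ± 0.20 (adjusted p = 0.066). Without experiment 2 of D4, D8 minus D4 was 0.63 ± 0.21 (adjusted p = 0.0553). With no detection filter the adjusted p was 0.0518 for D8 minus D3 and 0.0581 for D8 minus D4. The limma fit with the block and all arrays gave adjusted p of 0.000918 and 0.00104 for these differences. The other Rora probe, ILMN_2742686, was detected on 0 of 12 arrays, with detection p between 0.104 and 0.552.

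The gene most like Rora was Il17f (r = 0.940), a Th17 cytokine, followed by Ipmk (r = 0.938) and Spn (r = 0.937). Il17f was detected on no D3 or D4 array, so its r rests in part on background values. It passed the filter through D6 and D8 alone, the divisions in which Rora was also highest. Of the Th17 list, 10 of 13 on the array were detected, and 4 were higher and 0 lower in D8 against D3, with a median of 0.37. Over all detected genes, 34.7% were called, 16.7% higher and 18.1% lower. Il17f and Tmem176b, among the 4, were detected on no D3 array. Il17f was at least 4.21-fold higher in D8, a direction set by the filter. Hif1a, the oxygen-sensing factor, rose by 0.86 ± 0.17 and Batf, an AP-1 family factor, by 0.76 ± 0.13, while Tmem176b was at least 1.32-fold higher (adjusted p = 0.0268). Il17a was detected, but not on any D3 array, and its adjusted p was 0.159. Il22 and Il23r were not detected.

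Tbx21 was dim in all divisions and lowest in D4 and D6. It measured 5.34, 5.44 and 5.37 in D3, 4.92, 5.01 and 4.98 in D4, 5.11, 5.07 and 4.84 in D6, and 5.20, 6.11 and 5.19 in D8. The D8 mean of 5.50 ± 0.53 (SD, n = 3) rested on experiment 2, the other D8 arrays being below every D3 array and above every D4 and D6 array. D8 minus D3 was 0.12 ± 0.19 (adjusted p = 0.689). D8 minus D4 was 0.53 ± 0.19 with an adjusted p of 0.059, and of 0.0266 with the experiment as a block. Leaving out experiment 1 or experiment 3 of D8 gave 0.68 ± 0.20 (adjusted p = 0.0345) and 0.68 ± 0.20 (adjusted p = 0.0239). Leaving out experiment 2 of D8 gave 0.22 (adjusted p = 0.233), and it turned D8 minus D3 to -0.19 (adjusted p = 0.289). D4 minus D3 was -0.41 ± 0.19 (unadjusted p = 0.0491, adjusted p = 0.746). Runx3, its partner in Th1 cells, was detected on 0 of 12 arrays, with detection p of at least 0.464.

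Several Th1 genes were higher in D8 than in D3, and Tbx21 itself was not called. Of 15 on the array, 10 were detected, and 4 were higher and 2 lower in D8 against D3, with a median of 0.47. Over all detected genes, 16.7% were called higher and 18.1% lower. Cxcr3, a chemokine receptor and known T-bet target, rose by 4.07 ± 0.29 (adjusted p = 1.35e-07). Ifng, the defining Th1 cytokine, rose by 1.50 ± 0.20 (adjusted p = 4.8e-05), Il12rb1 by 0.63 ± 0.14, and Stat4, which relays interleukin 12 signals, by 0.47 ± 0.14. Ifng was detected on 1 of 3 D3 arrays, 2 of 3 D4 arrays, 0 of 3 D6 arrays and 3 of 3 D8 arrays. Its D3 mean of 4.66 was at background level, so the size of its rise is not exact. Irf1 and Fasl, a death ligand, were lower, Fasl by -0.72 ± 0.22 (adjusted p = 0.0209). Of the NK cell markers, Klrb1c, Ncr1, Klra8, Klra4 and Klre1 were not detected, while Klrd1 rose by 1.37 ± 0.25 and Prf1 fell by 1.25 ± 0.26.

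Gata3 differed more between experiments than between divisions. It measured 9.24, 9.68 and 8.80 in D3, 9.36, 9.41 and 8.87 in D4, 9.43, 9.11 and 8.89 in D6, and 9.10, 9.16 and 8.52 in D8. Experiment 3 was the lowest in every division, and all divisions overlapped. The experiment means were 9.28, 9.34 and 8.77, a span of 0.57 against 0.31 for the division means. The means of experiments spanned more than those of divisions for 2 of 11 member probes, Gata3 and Id3, and for 24% of all probes. D8 minus D3 was -0.31 ± 0.23 (adjusted p = 0.336). The trend of -0.06 ± 0.04 per division had an adjusted p of 0.264, and of 0.0489 with the experiment as a block.

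Of the Th2 list, 7 of 12 on the array were detected, and 1 was higher and 2 lower in D8 against D3, with a median of 0.18. Over all detected genes, 16.7% were called higher and 18.1% lower. Il4, the Th2 cytokine, was detected on no D3 array and was at least 5.82-fold higher in D8. It passed the filter through D6 and D8 alone, so the filter set the direction of this 1 higher gene. Ccr8, a Th2 and regulatory T cell chemokine receptor, fell by 1.53 ± 0.20, and Stat6, which relays the signal of Il4, by 0.42 ± 0.12. Maf, which can act on the Il4 promoter, was detected on 1 of 12 arrays, in experiment 1 of D8 with a detection p of 0.00534. Its D8 arrays measured 5.25, 4.71 and 4.66, and its D3 arrays 4.38, 4.37 and 4.31. The other D8 arrays were not above background, so no fold is given.

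The divisions overlapped for Bcl6, and its experiments differed. It measured 10.23, 10.51 and 9.87 in D3, 10.23, 9.88 and 9.51 in D4, 10.16, 9.52 and 9.73 in D6, and 10.55, 10.52 and 10.01 in D8. In each experiment D8 lay above D4 and above D6. D8 minus D4 was 0.48 ± 0.22, with an adjusted p of 0.128, and of 0.0294 with the experiment as a block. D8 minus D6 was 0.56 ± 0.22, with an adjusted p of 0.155, and of 0.031 with the block. D8 minus D3 was 0.16 ± 0.22 (adjusted p = 0.639).

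Of the Tfh list, 12 of 15 on the array were detected, and 5 were higher and 1 lower in D8 against D3, with a median of 0.32. Over all detected genes, 16.7% were called higher and 18.1% lower. Il21, the Tfh cytokine, was detected on no D3 array and was at least 6.83-fold higher in D8. It passed the filter through D6 and D8 alone, so the filter set its direction. Cxcr5, the receptor that leads cells to B cell follicles, rose by 1.73 ± 0.15 and Pou2af1, a coactivator known from B cells, by 1.65 ± 0.16. Icos, a costimulatory receptor, rose by 1.22 ± 0.27, and Cd200 fell by 0.97 ± 0.18. Cxcr5 and Pou2af1 are also expressed by B cells. Of the 4 detected B cell markers, Cd22 was at least 3.01-fold higher in D8. Cd79b differed by -0.26 ± 0.28 in D8 minus D3, and it, Ebf1 and Fcer2a were not called. Ms4a1 and Pax5 were not detected. The part of B cell RNA in these differences was not tested.

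**Figure D3:**
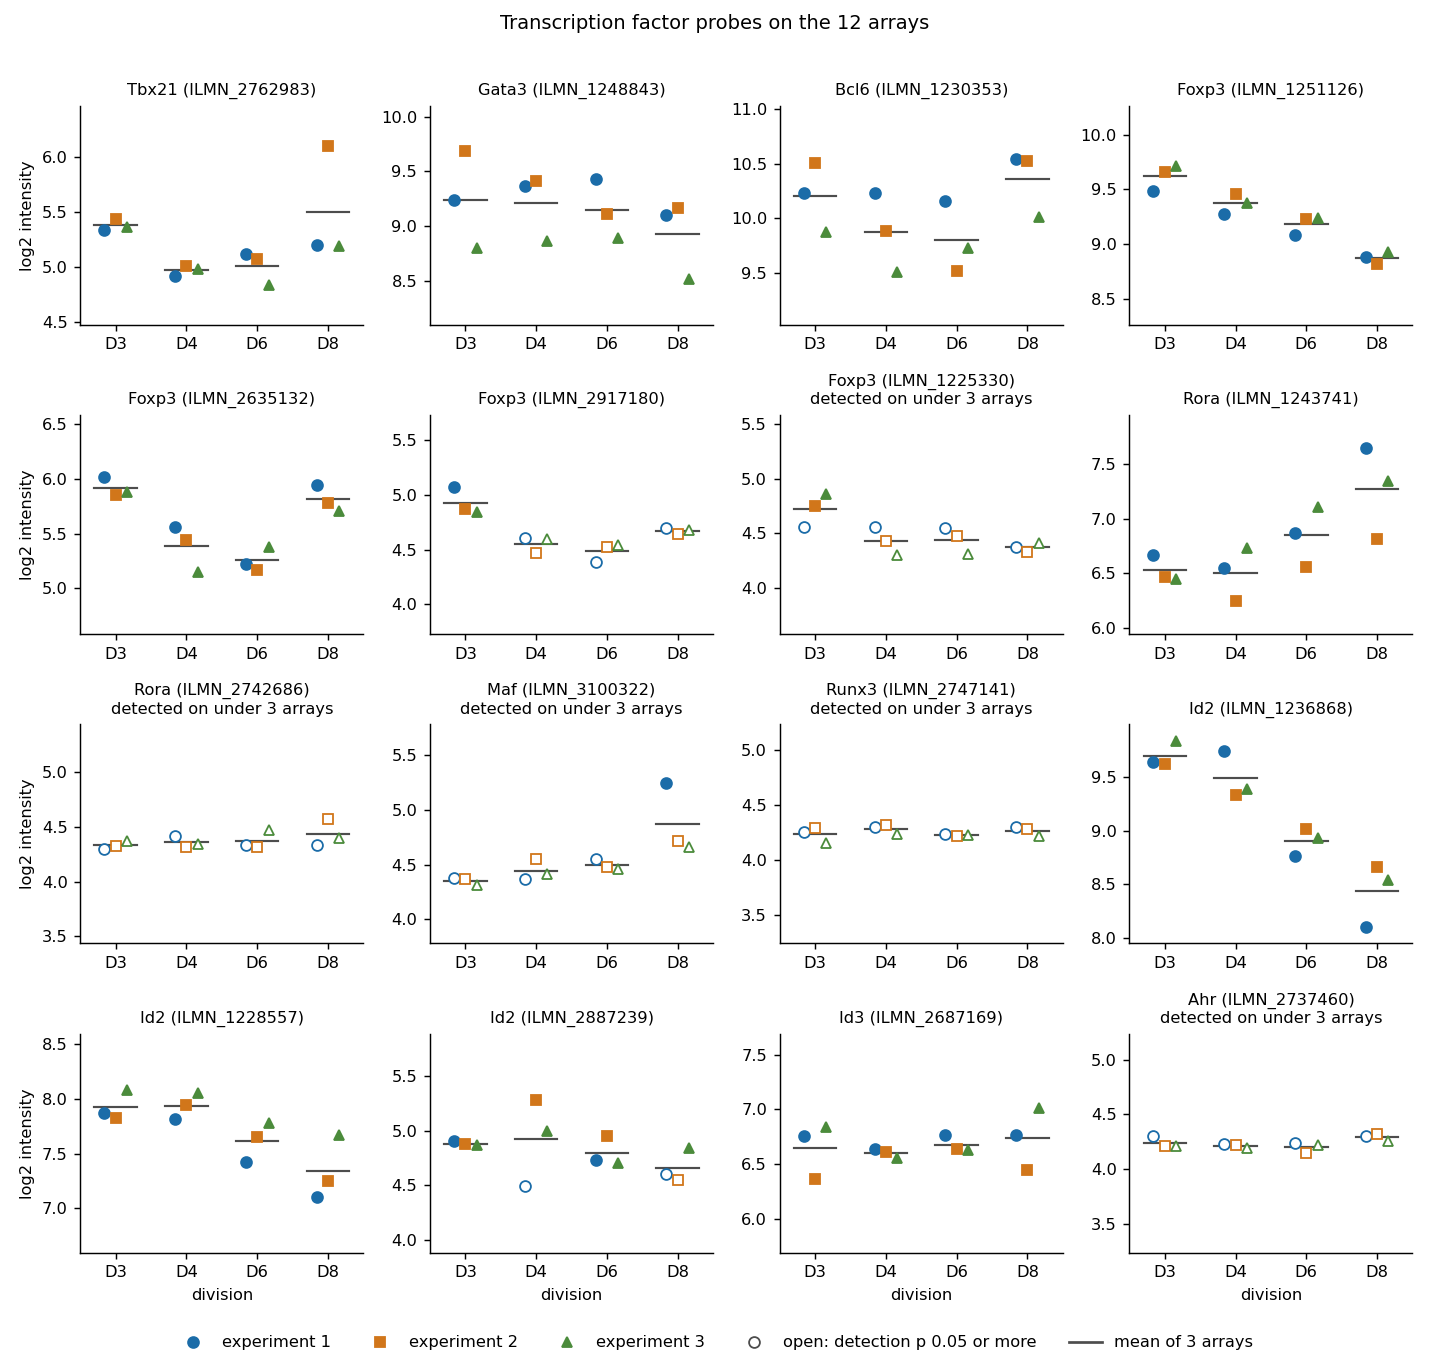
Log2 intensity (vertical axis, scaled per panel) of all 16 probes on the 12 arrays, by division; colours and shapes mark the 3 experiments, open symbols have a detection p of 0.05 or more, and lines are means of 3 arrays. Id2 (ILMN_1236868) and Foxp3 (ILMN_1251126) step down toward D8, Rora (ILMN_1243741) steps up, and in Gata3 the experiment 3 arrays are lowest in every division.

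The division with the lowest mean differed between members. For 6 of 11 detected member probes the lowest mean was in D4 or D6, as for 33% of all probes. For 5 it was in D8 (36.8% of all probes), and for 0 in D3 (30.2% of all probes). The groups did not overlap for 6 of 11 member probes in D8 against D3 (44.3% of all probes), 7 in D8 against D4 (37.3%), 5 in D8 against D6 (24.9%), 3 in D6 against D4 (20.2%) and 4 in D4 against D3 (11.5%). The 4 in D4 against D3 were Tbx21 and the 3 Foxp3 probes, of which ILMN_2917180 had to be higher in D3 because of the filter. The counts of 11 probes include it, also in D8 against D4 and D8 against D6, where it was not above background in either division.

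Ahr was detected on 0 of 12 arrays, with detection p of at least 0.474. Its dimerization partner Arnt and Nfe2l2 were the 2 detected genes of its list, and 0 of them were called in D8 against D3. Arnt differed by -0.32 ± 0.14 (adjusted p = 0.111; 0.0314 with the experiment as a block). The target genes Cyp1a1, Cyp1b1, Ahrr, Tiparp and Nqo1 were not detected. A probe that is not above background gives only an upper limit on the RNA that it reads.

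Other regulators around the members moved in both directions. Of the list of memory and terminal effector regulators, 11 of 17 on the array were detected. In D8 against D3, 2 were higher and 3 lower, with a median of -0.11, where 16.7% of all detected genes were called higher and 18.1% lower. Zbtb32, a BTB zinc finger repressor of T cell cytokines, rose by 4.23 ± 0.19 (adjusted p = 4.37e-09), and Klf2, which keeps T cells in circulation, by 1.72 ± 0.13. Zeb1 fell by 0.69 ± 0.12, Foxo1, a factor of naive and memory T cells, by 0.44 ± 0.15, and Bhlhe40 by 0.43 ± 0.14. Prdm1, Eomes and Bach2 were not detected. Of the Runx and lineage commitment list, 7 of 9 were detected, and 0 were higher and 1 lower. Tox fell by 1.10 ± 0.14, and Ets1 differed by 0.34 ± 0.13 (adjusted p = 0.0504; 0.0177 with the experiment as a block). With the block, Ccl5 of the Th1 list, Ccr4 of the Th2 list and Cd40lg of the Tfh list were also called higher. Ccr4 passed the filter through D6 and D8 alone, so the filter set its direction.

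**Figure D4:**
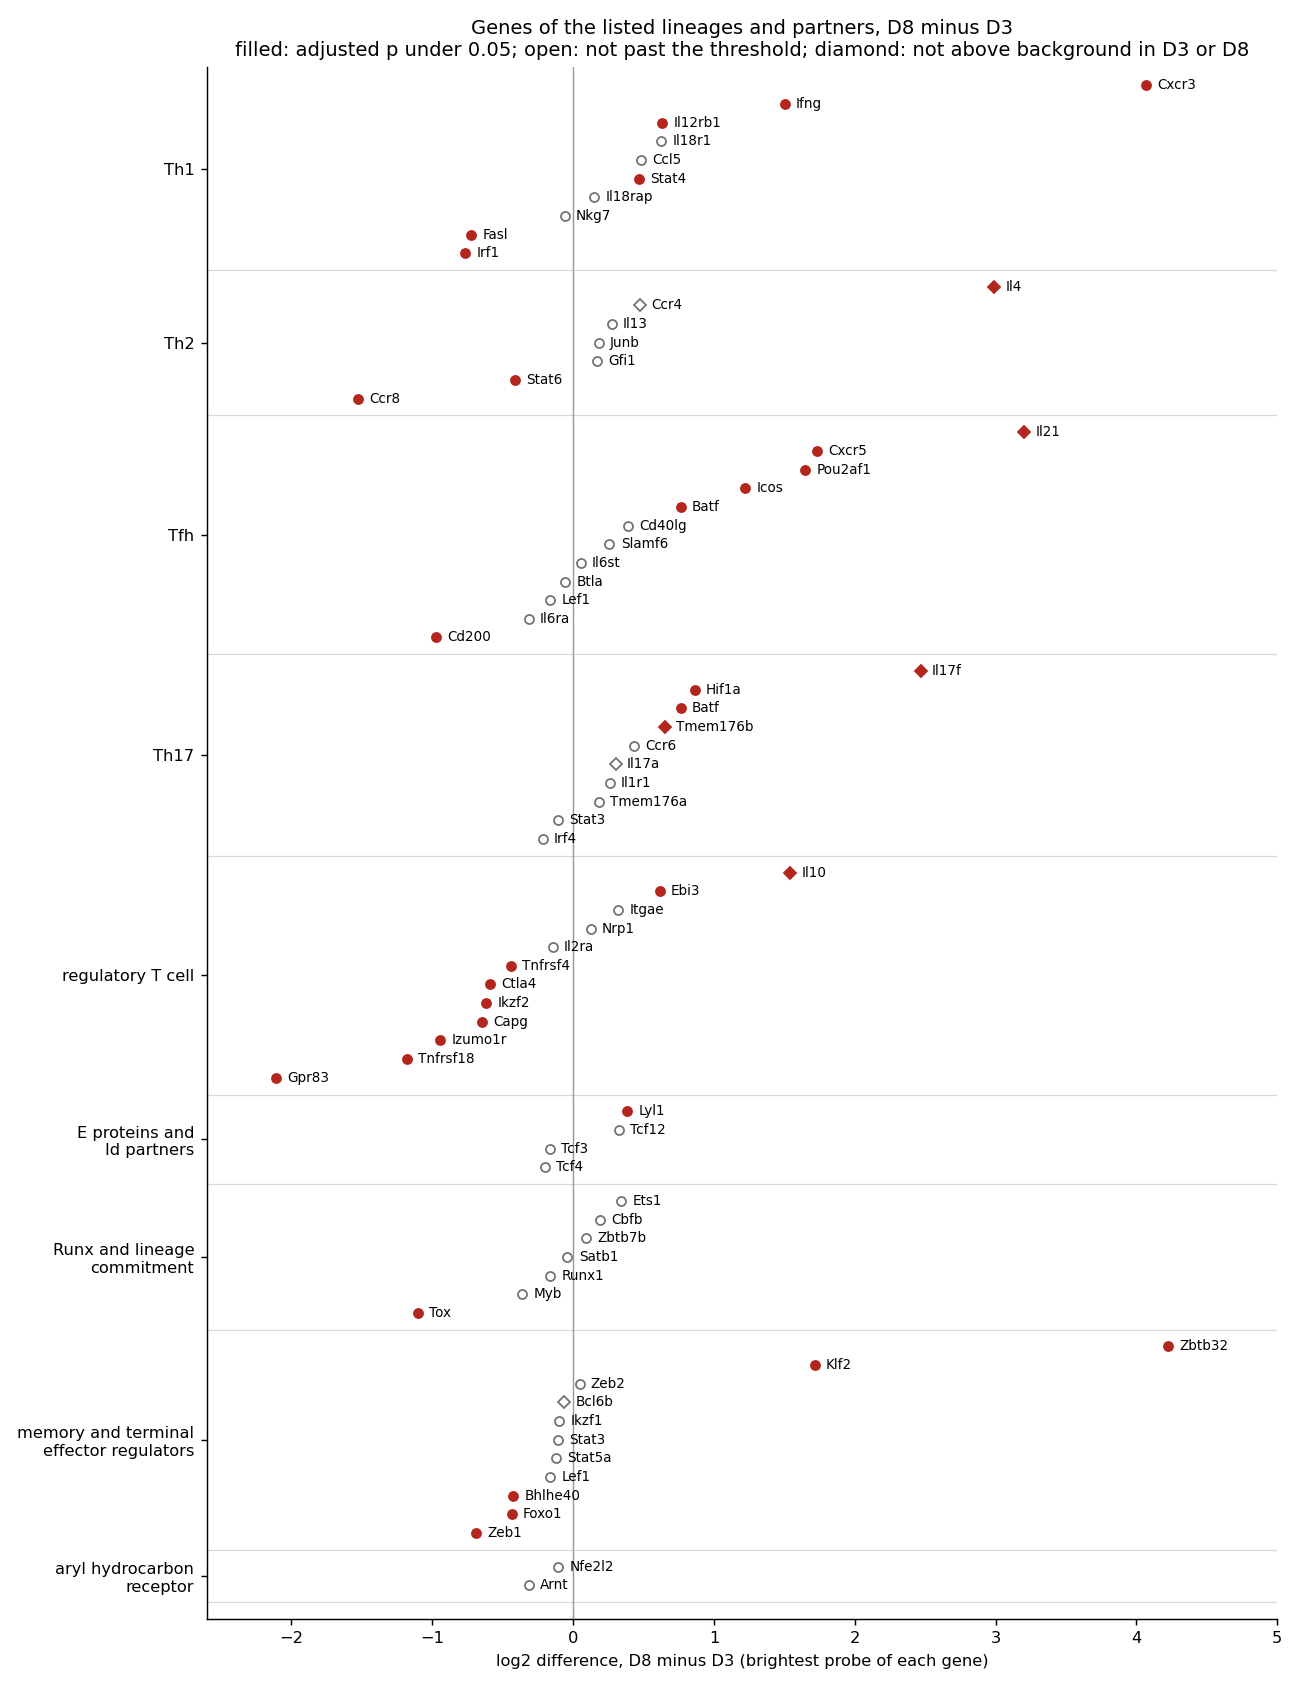
Log2 difference D8 minus D3 (horizontal axis) of each detected gene of the lineage and partner lists, by its brightest probe. Filled red symbols had an adjusted p under 0.05, and diamonds mark genes not above background in D3 or D8, for which only a bound holds. Most regulatory T cell genes lie left of 0. Il4, Il21 and Il17f lie far to the right, and they passed the filter through D6 and D8 alone.

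Of the 9 detected T cell markers, 0 were higher and 2 lower in D8 against D3, with a median difference of -0.13, beside the lower summed level given above. Over all detected genes, 16.7% were called higher and 18.1% lower. The called ones were Cd3d (-0.35 ± 0.10) and Cd3g (-0.37 ± 0.11). Their part in the lower Id2, Foxp3 and regulatory T cell genes was not tested. Of the CD8 markers, Cd8a was not detected and Cd8b1 differed by -0.36 ± 0.15 (adjusted p = 0.0841; 0.0114 with the experiment as a block), while 1 other detected probe of Cd8b1 was called higher. The brightest Cd8b1 probe was detected on 3 of 3 arrays in each division, with a mean of 11.67 in D3 and 11.30 in D8. The part of CD8 T cell RNA in these samples was not tested. Cd2 of the T cell list differed by -0.33 ± 0.12 (adjusted p = 0.0549; 0.0172 with the block). Of the myeloid, dendritic and erythroid markers, 2 of each list were detected and 0 were called.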

How the data were processed

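Total RNA of 12 samples, 3 per division, was measured on Illumina bead arrays with 45281 probes. The authors deposited probe intensity values read with BeadStudio 2.0, per the submitters' processing notes, on a linear scale and not normalized between arrays. The deposited table also holds a detection p-value per probe and array, per the file headers. A second deposited table held intensity values that the authors had processed by steps not stated. It ranked the probes of every array as the first table did (rank correlation 1), and the medians of its arrays ran from 2.74 to 2.755.

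Symbols came from the platform annotation: 34885 probes had 1 symbol, 18 several and 10378 none, and gene identifiers gave a current symbol for 34807, of which 0 changed. The genome build of the probes is not given in the sources used here. Background correction, quantile normalization and log2 transformation were done by neqc (limma 3.58.1, R 4.3.3), where limma takes the negative controls from the detection p, and an offset of 16 was added, which makes differences of dim probes smaller. The detection filter of the report kept 17829 probes (detection p below 0.05, 3 arrays or more, of which 14972 had 1 symbol, for 9566 genes). All 12 arrays entered 1 fit with lmFit and eBayes of limma, with the 4 division means (8 residual degrees of freedom), and a second fit used times divided as a number. Tests were two-sided with Benjamini-Hochberg adjustment over all detected probes, and the number of arrays limits the precision. Other genes were read from their brightest probe in the same fit. A gene not detected in D3 has only a bound, set by the detection floor of the arrays.

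The experiment number was not in the main fit. It pairs the arrays: the 18 pairs of arrays from 1 experiment had residual correlations of 0.156 to 0.403 and the remaining 36 of -0.355 to 0.073, and for 12 of 12 arrays the best match had the same number. The fit was tested on simulated data. Named genes were the 10 members with all their probes. From each list, the genes called in D8 against D3 were named, up to the 4 largest each way, plus genes needed to show what was not detected, and the 3 genes most like each member with a called trend were added. Tcf12, Cd8b1, Cd4, Cd2, Cd79b, Ebf1, Fcer2a, Il17a, Ets1, Ccl5, Ccr4, Cd40lg, Arnt and Nfe2l2 were named after their values were seen. The members and lists were chosen with earlier results of these data known. The alternatives were median centring, no background correction, no filter or a stricter one, the authors' processed values, the brightest probe per gene, the 6 arrays of a pair alone, the block, and each array left out.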

Additional observations from a re-analysis of the deposited data

How the results depend on the processing

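No called difference changed sign under an alternative. Of 14 called member differences, 8 kept their call under every setting and left-out array; 5 lost it under a setting and 5 without an array. Of 52 uncalled ones, 8 were called under some alternative. Probes called in the order D8 against D3, D8 against D4, D6 against D4, D8 against D6, D4 against D3 and trend numbered 5740, 4271, 531, 1207, 0 and 6356, and the member probes among them 4, 5, 0, 1, 0 and 4. With arrays left out in turn the ranges were 4426 to 5813, 2988 to 4256, 283 to 598, 426 to 1441, 0 to 2 and 5257 to 6292 for all probes, and 3 to 4, 3 to 6, 0 to 1, 0 to 1, 0 to 0 and 4 to 4 for member probes. In D6 against D4, 326 were called without experiment 1 of D4, and 308, 322 and 283 without experiments 1, 2 and 3 of D6. In D8 against D6, 644 and 632 were called without experiments 2 and 3 of D6, and 426 and 692 without experiments 1 and 2 of D8. In D4 against D3, 2 were called without experiment 1 of D4. Member calls in D8 against D4 numbered 3 without experiment 1 of D8, those in D6 against D4 numbered 1 without it, and those in D8 against D6 numbered 0 without it and 0 without experiment 2 of D6. Median centring gave 2669 in D8 against D4, 205 in D6 against D4 and 490 in D8 against D6, and 3 and 0 member calls in the first and last of these. The brightest probe per gene gave 3492 in D8 against D3, 2728 in D8 against D4, 1 in D4 against D3 and 3803 for the trend, with 3, 1 and 0 member calls in D8 against D4, D6 against D4 and D8 against D6; fewer features were tested there. With no detection filter the counts were 309 in D6 against D4, 802 in D8 against D6 and 1 in D4 against D3, and a stricter filter gave 1 in D4 against D3. The authors' values gave 11 in D4 against D3 and 2 member calls in D8 against D6, and no background correction gave 1 member call in D6 against D4. With the experiment as a replicate block, 1322 were called in D6 against D4, 2367 in D8 against D6 and 48 in D4 against D3, with 1 and 3 member calls in the first 2 of these. Apart from block values beside the results, the block changed no member call. Except where stated, the cause was not tested. In D4 against D3, where 0 probes passed in limma, 1188 had an unadjusted p under 0.05. Probes near the floor of 4.67 to 4.78, such as those of Tbx21 and Maf, ILMN_2887239, ILMN_2917180 and ILMN_2635132, have compressed differences. Nothing states that the 3 experiments used separate animals per division, so p-values measure the spread between these arrays.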
